A study of Mus musculus with 5 samples.

Results

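Rhox5, a homeobox gene of the X-linked reproductive homeobox cluster, and 8 genes of the DNA methylation machinery were followed across 5 microarrays of mouse mammary tumour cells. The machinery genes were the DNA methyltransferases Dnmt1, Dnmt3a and Dnmt3b, their cofactor Dnmt3l, the hemimethylated-DNA reader Uhrf1 and the dioxygenases Tet1, Tet2 and Tet3. Rhox5 was chosen because its signal was low on both bone arrays, so its differences between groups are given as a description, with no test. The machinery genes were chosen by function, and their differences could be tested. The 9 genes are represented by 21 of the 45101 probe sets on the array, and they are 9 of the 18193 genes that have a probe set of their own.

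The study profiled NT2.5 cells, an epithelial tumour line from mice that carry a mammary neu oncogene transgene, and sub-lines of it with a metastatic preference for bone or for liver. All groups therefore share the NT2.5 background, and no further allele or treatment is given in the labels. The wild type (parental) cells, whose metastatic sites are given as bone, liver and lung, were measured on 1 array. The bone sub-line was measured on 2 arrays, at passages 3 and 6. The liver sub-line was measured on 2 arrays, at passages 1 and 3. Each sub-line is a single lineage sampled at successive passages, so the 2 arrays of a sub-line are not independently derived lines, and p-values measure only the spread between passages, which may in part be technical. The values are linear probe-set intensities, scaled so that every array has a mean of 150.0 once the highest and lowest 2% are left out. The mammary epithelial markers Krt8, Krt18, Epcam and Cdh1 were bright on all 5 arrays, and 8 of the 9 markers of that list reached the median of all values, 25.1, on at least 1 array. The exception was the epithelial keratin Krt19. Not every marker of the list was steady. The brightest Esr1 probe set read 6.0 on the parental array, 105.8 and 97.3 in bone and 47.8 and 90.7 in liver, so it reached that median on the sub-line arrays alone. Another Esr1 probe set read 32.2, then 44.2 and 36.2, and 30.4 and 20.6. Gata3 read 191.4, then 307.6 and 225.1, and 154.7 and 155.8.

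DNA methylation at CpG dinucleotides is copied after replication by DNMT1, which UHRF1 brings to hemimethylated sites, and is laid down anew by DNMT3A and DNMT3B, with DNMT3L as a catalytically inactive partner. TET enzymes oxidise 5-methylcytosine and so open the way to its removal. Rhox5, also known as Pem, is transcribed in Sertoli cells, epididymis and placenta, is kept silent by promoter methylation in most somatic tissues, and is known to be switched on in many tumour cell lines.

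Because CpG methylation acts on the letters upstream of a gene, the 250 bases before the start of Rhox5, and before the start of the methyltransferase and of the reader that maintain methylation, are shown in RefSeq sequence, build GRCm38.p6. Each is written 5′ to 3′ on the strand of its gene, and capitals mark CpG dinucleotides. The windows are chrX:37754358-37754607 on the plus strand for Rhox5, chr9:20959889-20960138 on the minus strand for the most upstream of the Dnmt1 starts, and chr17:56303087-56303336 on the plus strand for the first of the Uhrf1 starts.
Rhox5: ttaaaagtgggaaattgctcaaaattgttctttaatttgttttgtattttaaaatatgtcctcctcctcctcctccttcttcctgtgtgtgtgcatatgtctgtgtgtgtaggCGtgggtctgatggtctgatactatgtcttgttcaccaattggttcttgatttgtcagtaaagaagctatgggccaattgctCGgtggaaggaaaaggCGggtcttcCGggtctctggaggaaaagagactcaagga
Dnmt1: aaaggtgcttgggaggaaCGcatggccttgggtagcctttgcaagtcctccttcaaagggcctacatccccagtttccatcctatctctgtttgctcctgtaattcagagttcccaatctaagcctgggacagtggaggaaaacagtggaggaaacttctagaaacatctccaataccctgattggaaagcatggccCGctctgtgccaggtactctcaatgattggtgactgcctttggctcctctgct
Uhrf1: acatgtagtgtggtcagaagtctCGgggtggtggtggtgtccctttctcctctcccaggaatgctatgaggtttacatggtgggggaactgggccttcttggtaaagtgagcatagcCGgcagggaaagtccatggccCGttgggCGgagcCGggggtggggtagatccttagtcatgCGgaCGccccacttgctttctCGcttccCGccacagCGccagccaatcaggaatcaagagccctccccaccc
The Rhox5 window holds 4 CpG dinucleotides, at 137, 55, 39 and 30 bases before the annotated start, and 42.8% of its bases are G or C. Among 32851 windows of the same length from 27025 genes, the median was 6 CpG dinucleotides with quartiles of 2 and 16, and 44.4% of windows held as few as Rhox5. The Dnmt1 window shown holds 2 and the Uhrf1 window shown holds 10, but the count depends on the start, since the 3 Dnmt1 windows hold 2 to 26 and the 2 Uhrf1 windows 10 to 30. The single windows of Dnmt3b and Tet2 hold 21 and 51. On either strand, the ETS-family core GGAA occurs 6 times before Rhox5, where the median window holds 3 and 8.69% hold as many. The letters AGAACA, a core of steroid receptor sites, occur 1 time on either strand, as they do at least once in 16.1% of all windows, and GGGCGG, an SP-factor core, which 32.7% of windows hold, is not in this window. RefSeq gives 1 start for Rhox5 here, and it was not determined which of its known promoters this is. The arrays measure RNA, and no methylation measurement was analysed here.

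Rhox5 had the widest range of the 9 genes. Its single probe set, 1423429_at, read 2809.8 on the parental array, 63.0 and 125.7 on the bone arrays of passages 3 and 6, and 1662.3 and 3731.3 on the liver arrays of passages 1 and 3. Both bone arrays were low, the parental and both liver arrays were high, and the parental value lay between the 2 liver values. The bone values were nevertheless above the median of all values, 25.1. In these bulk samples, fewer cells that transcribe a gene and less of its RNA per cell cannot be told apart.

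On the log2(intensity + 16) scale, which shrinks the differences of dim probe sets and is used for every difference here, Rhox5 differed by -4.57 between bone and liver (23.7-fold lower in bone) and by -4.74 between bone and the parental array (26.7-fold lower in bone). The liver arrays differed from the parental array by -0.17 (1.13-fold). The closest pair across the low and high arrays, bone passage 6 against liver passage 1, was 11.8-fold apart, and the farthest, bone passage 3 against liver passage 3, was 47.4-fold apart. Within the bone sub-line, passage 6 read 1.79-fold above passage 3, and within the liver sub-line passage 3 read 2.23-fold above passage 1. Over all 12609 genes tested, 2.43% were at least 2-fold apart between the bone passages and 2.81% between the liver passages. The gap between the low and high arrays was therefore larger than either difference between passages. Across all genes, 17.6% had both bone arrays below the other 3, and 0.0476% (6 genes) had both at least 4-fold below each of the other 3. These shares describe the contrast by which Rhox5 was chosen and are not a test of it.

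**Figure D1:**
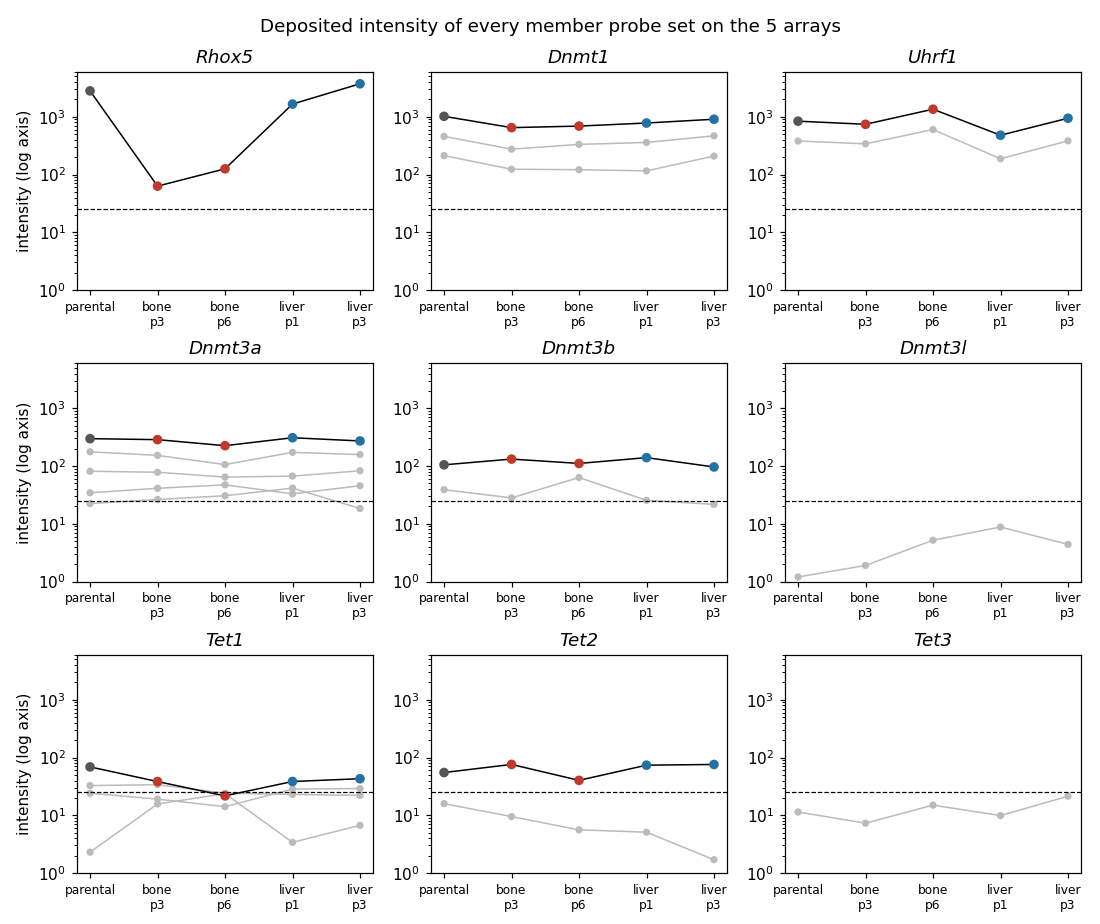
Intensity of the probe sets of the 9 genes on the 5 arrays, on a log axis. Each point is 1 array, lines only guide the eye from array to array, and the dashed line marks the filter at 25.1. Rhox5 reads 63.0 and 125.7 on the bone arrays. The 6 machinery genes that pass the filter span at most 2.76-fold on the probe set that stands for each gene.

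The Rhox cluster has many more genes than the array annotation names: 4 of 42 RefSeq Rhox symbols could be matched. Beside Rhox5, these were Rhox6, Rhox9 and Rhox13, further homeobox genes of the cluster. Rhox9 read 34.9 on the parental array, 26.4 and 7.2 on the bone arrays and 26.8 and 22.4 on the liver arrays. The lowest Rhox9 value was that of bone passage 6, and the bone and liver arrays overlapped. Rhox6 stayed between 1.5 and 8.7 and Rhox13 between 0.7 and 5.2, under the filter on every array. Of the 10 nearest measured genes that flank the cluster, 8 passed the filter, and all 8 were lower in bone than in liver by point estimate, by -0.28 to -1.34. None of the 8 passed an adjusted p of 0.05 in limma, and 6 had an unadjusted p under 0.05 in bone against liver, as did 14.1% of all genes and 47.7% of X-linked genes. Cul4b, which encodes a scaffold of ubiquitin ligases, showed the most negative of these. It read 383.3 on the parental array, 209.2 and 297.0 on the bone arrays and 632.1 and 685.3 on the liver arrays, with bone below parental below liver. Nkap, a transcriptional regulator gene, read 135.2, then 108.3 and 112.7 in bone, and 257.3 and 216.2 in liver, in the same order. Against the parental array, the 8 flanking genes differed in bone by -0.59 to 0.056, beside -4.74 for Rhox5, which was chosen for its low bone signal.

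X-linked genes as a whole also read lower in bone than in liver, which was seen when the genes were ordered by chromosome after the first results were known. Of 354 X-linked genes tested, 311 (87.9%) were lower in bone than in liver by point estimate, with a median log2 difference of -0.51, while the medians of the 19 autosomes lay between -0.29 and 0.17. Against the parental array, the X-linked median was -0.20 in bone, within the autosomal range of -0.31 to 0.11 and above chromosomes 9 and 3, and 0.28 in liver, outside the autosomal range of -0.24 to 0.17. With the X chromosome split along its length into 4 stretches of like gene number, the bone against liver medians were -0.52, -0.51, -0.48 and -0.51, the first being that of the stretch with Rhox5. Rhox5 was the X-linked gene with the most negative difference in bone against liver and in bone against parental, and its differences from the X-linked median were -4.06 and -4.54. In both comparisons it was also the most negative of all 12609 genes tested. Rhox5 was chosen for its low bone signal, so this rank and these distances follow from the choice and are not a test. The next lowest X-linked gene in bone against liver was Armcx3 at -2.36. In liver against parental, the difference of Rhox5 from the X-linked median was -0.46.

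Xist, the RNA that coats the inactive X chromosome, did not follow the X-linked median. The brightest of its 3 probe sets read 224.8 on the parental array, 20.8 and 40.5 on the bone arrays and 48.6 and 31.7 on the liver arrays. All 4 sub-line arrays were below the parental array, and bone and liver overlapped. The part of the chromosome-wide shift and of Xist in the Rhox5 difference was not tested.

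**Figure D2:**
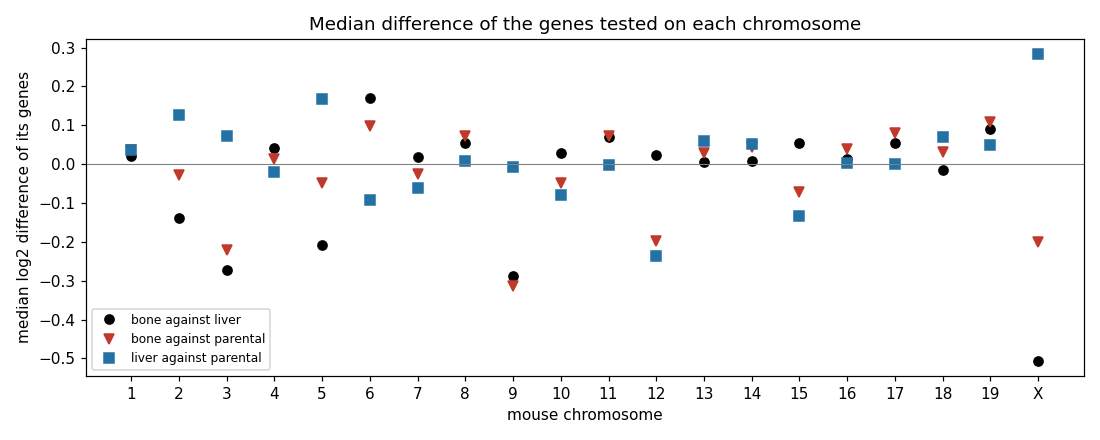
Median log2 difference of the genes of each chromosome in the 3 comparisons. The X chromosome has a median of -0.51 in bone against liver, outside the autosomal range of -0.29 to 0.17. The Rhox5 difference in that comparison was -4.57. The gene was chosen for its low bone signal, so its distance from this median is not a test.

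The genes with profiles most like Rhox5 were found by the root mean square distance between profiles of log2(intensity + 16), each centred on its own mean over the 5 arrays. The 6 nearest were Ppm1m, Gzme, Clca2, Sel1l3, Ppp2r2c and Pard3b, at distances from 1.00 to 1.20, against a Rhox5 range of 5.57 on the same scale. Ppm1m, which encodes a protein phosphatase, read 104.0 on the parental array, 2.2 and 8.9 on the bone arrays and 98.4 and 157.0 on the liver arrays. Gzme, a granzyme gene, read 473.8 on the parental array, 87.1 and 34.7 on the bone arrays and 363.9 and 1126.3 on the liver arrays. In both genes the bone arrays were lowest and liver passage 3 was highest, as for Rhox5. Clca2, of a family named for calcium-activated chloride channels, had its highest value, 596.4, at liver passage 1. These genes were picked for their likeness, and the likeness rests on 5 arrays.

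**Figure D3:**
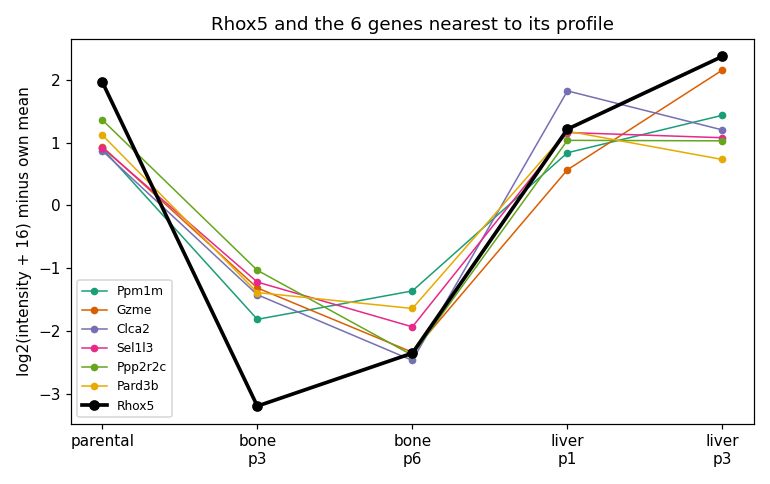
Profiles of Rhox5 and the 6 nearest genes over the 5 arrays, as log2(intensity + 16) centred on each gene's mean. All have their low values on the bone arrays, and none spans as much as the Rhox5 range of 5.57.

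On the probe set that stands for each gene, the one with the highest mean, none of the machinery genes that passed the filter spanned more than 2.76-fold over the 5 arrays, and a second Uhrf1 probe set spanned 3.03-fold. Of the 8 genes, 6 passed the filter (Dnmt1, Dnmt3a, Dnmt3b, Uhrf1, Tet1 and Tet2), and limma with Benjamini-Hochberg adjustment over 12609 genes called 0 of the 6 in each of the 3 comparisons. Over all genes the called share was 0.190% for bone against liver, 0.135% for bone against parental and 0.0159% for liver against parental, so that 0 of 6 is near the background in each. At an unadjusted p under 0.05, the counts were 0 of 6 for bone against liver, 2 of 6 for bone against parental (Dnmt1 and Tet1) and 0 of 6 for liver against parental, where 14.1%, 8.17% and 7.49% of all genes passed. The largest machinery difference in any of the comparisons was 0.91 on the log2 scale. The comparisons with the parental cells share its single array, whose own spread is not measured.

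Dnmt1, the maintenance methyltransferase, was highest on the parental array. Its brightest probe set, 1422946_a_at, read 1020.1 on the parental array, 649.3 and 690.7 on the bone arrays and 780.7 and 907.0 on the liver arrays. Both bone arrays were below both liver arrays, and all 4 were below the parental array, over a total range of 1.56-fold. Of all genes, 17.6% had both bone arrays below the other 3, and 18.1% had all 4 sub-line arrays below the parental array. Bone against parental was -0.60 ± 0.23 (SE, 1.51-fold lower in bone, 95% interval -1.15 to -0.042), with a limma p of 0.0388 and an adjusted p of 0.565, and the sign was the same on 2 of 2 bone arrays. Bone against liver was -0.32 ± 0.19 (adjusted p = 0.482 in limma) and liver against parental -0.27 ± 0.23 (adjusted p = 0.849 in limma). The probe set 1435122_x_at read 458.1 on the parental array, 275.1 and 333.1 in bone and 359.5 and 468.8 in liver. The probe set 1447877_x_at read 212.8 on the parental array, 123.8 and 121.3 in bone and 115.8 and 208.9 in liver. Both put bone below parental, with differences of -0.57 and -0.72, but liver passage 3 exceeded the parental array on the first and liver passage 1 was below both bone arrays on the other. The genes of chromosome 9, which carries Dnmt1, had a bone against parental median of -0.31, and 566 of its 687 tested genes (82.4%) were lower in bone by point estimate. The Dnmt1 difference from that median was -0.28, and 18.5% of the genes of the chromosome lay lower still. In bone against liver the chromosome 9 median was -0.29, beside -0.32 for Dnmt1. The part of these chromosome-wide shifts in the Dnmt1 differences was not tested.

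The de novo methyltransferases differed little by point estimate on the probe set that stands for each gene. For Dnmt3a, the probe set 1423063_at read 298.2 on the parental array, 286.5 and 225.2 in bone and 309.3 and 272.0 in liver, a range of 1.35-fold. The bone and liver values overlapped, and the parental value lay among them. The 3 differences were -0.18 ± 0.20 for bone against liver, -0.22 ± 0.25 for bone against parental and -0.038 ± 0.25 for liver against parental, with adjusted limma p-values of 0.723, 0.909 and 0.992. The 95% intervals of the first and second ran from -0.67 to 0.31 and from -0.82 to 0.39. In the same comparisons, the medians of the genes of chromosome 12, which carries Dnmt3a, were 0.024, -0.20 and -0.24. The other Dnmt3a probe sets did not give a common sign: against the parental array, 1423065_at and 1460324_at gave -0.16 and -0.42 in bone, while 1423064_at and 1423066_at gave 0.26 and 0.21.

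Dnmt3b on probe set 1449052_a_at read 105.0 on the parental array, 132.1 and 111.0 in bone and 139.9 and 96.4 in liver. The 2 bone values lay between the 2 liver values. Bone against liver was 0.051 ± 0.23 (95% interval -0.50 to 0.61) and bone against parental 0.18 ± 0.28 (95% interval -0.50 to 0.86), both with an adjusted limma p of 0.939. The dimmer probe set 1418351_a_at read 38.9 on the parental array, 28.1 and 63.3 in bone and 25.5 and 21.7 in liver, where bone was above liver on every array. Dnmt3l, the cofactor of germ cells and early embryos, read 1.2 on the parental array, 1.9 and 5.2 in bone and 8.8 and 4.4 in liver, below the filter everywhere, and was not tested.

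Uhrf1 read higher at the later passage of both sub-lines. Its probe set 1415810_at read 840.1 on the parental array, 742.2 and 1354.0 on the bone arrays of passages 3 and 6, and 479.5 and 945.6 on the liver arrays of passages 1 and 3. Bone passage 6 was the highest array and liver passage 1 the lowest, so bone and liver overlapped. The later passage exceeded the earlier by 0.85 in bone and by 0.96 (1.94-fold) in liver, each from 1 array a passage and so with no test. The second probe set, 1415811_at, gave 0.79 and 0.97. With each array centred on its median, the Uhrf1 difference between bone passages passes 2-fold. Bone against liver was 0.56 ± 0.40 (95% interval -0.42 to 1.54, adjusted p = 0.564 in limma), and it ran from 0.084 without liver passage 1 to 1.04 without liver passage 3. None of the 6 machinery genes was 2-fold apart between passages, where 2.43% of all genes were in bone and 2.81% in liver, so 0 of 6 is near the background. At 1.5-fold there were 2 in bone (Uhrf1 and Tet2) and 1 in liver (Uhrf1), where 10.3% and 13.1% of all genes were that far apart. Among all genes, 0.833% were at least 1.5-fold higher at the later passage in both sub-lines, as Uhrf1 was. Between the sub-lines at passage 3, none of the 6 was 2-fold apart, against 4.59% of all genes, and the largest difference was that of Dnmt1, -0.47.

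Uhrf1 is known to be transcribed with the genes of DNA replication, and a list of 19 such genes was set beside it, of which 18 were annotated and passed the filter. None was called in any of the 3 comparisons, and 1, 0 and 0 had an unadjusted limma p under 0.05, where 14.1%, 8.17% and 7.49% of all genes did. Between passages, 15 of 18 were higher at passage 6 than at passage 3 in bone, with a median of 0.60, and 18 of 18 were higher at passage 3 than at passage 1 in liver, with a median of 0.63. The medians of all genes were -0.044 and 0.022. The replication licensing gene Mcm2 read 1316.0 on the parental array, 1015.5 and 1709.3 in bone and 660.1 and 967.1 in liver, and Cdc6, a loader of the replicative helicase, read 337.3, then 254.4 and 454.3, and 122.7 and 350.9. Both were higher at the later passage of each sub-line. Relative to the parental array, the list median was -0.40 and 0.18 in bone and -0.71 and -0.052 in liver, in the order of passages, beside Uhrf1 values of -0.18, 0.68, -0.79 and 0.17. Dnmt1, which also serves at the replication fork, had values of -0.64, -0.55, -0.38 and -0.17. Tet1 had -0.64, -1.17, -0.64 and -0.53. The genes nearest to Uhrf1 in profile were E2f8, Mcm4 and Skp2, at distances of 0.0657, 0.0709 and 0.0843 over the 5 arrays.

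**Figure D4:**
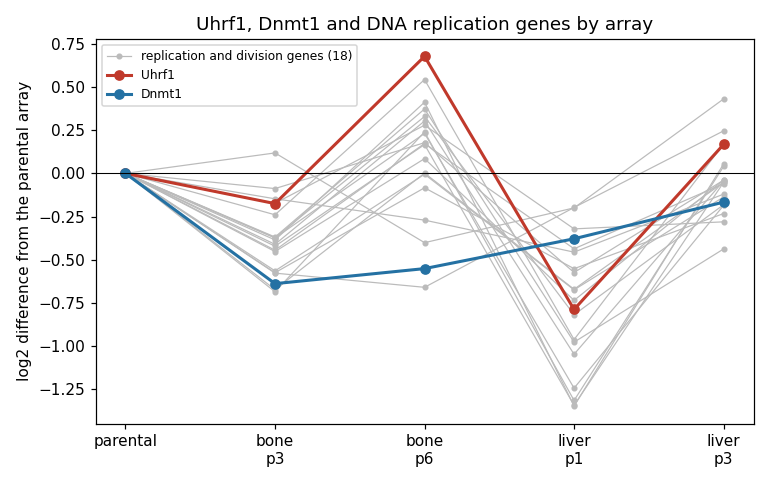
Log2 differences from the parental array on the 4 sub-line arrays for the replication genes, with Uhrf1 and Dnmt1 drawn over them. The list median is -0.40 and 0.18 on the bone arrays and -0.71 and -0.052 on the liver arrays. Uhrf1 too has the later passage above the earlier, and Dnmt1 is below 0 on all 4 arrays.

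Tet1 was highest on the parental array on its brightest probe set. That probe set, 1455425_at, read 68.9 on the parental array, 38.4 and 21.7 in bone and 38.5 and 43.0 in liver. All 4 sub-line arrays were below the parental array, and both bone arrays were below both liver arrays, although bone passage 3 and liver passage 1 were nearly equal. Bone against parental was -0.91 ± 0.28 (1.87-fold lower in bone, 95% interval -1.60 to -0.22), with a limma p of 0.0181 and an adjusted p of 0.441, and the sign was the same on 2 of 2 bone arrays. Liver against parental was -0.58 ± 0.28 (adjusted p = 0.728 in limma) and bone against liver -0.32 ± 0.23 (adjusted p = 0.563 in limma). The other probe sets that passed the filter gave smaller differences in bone against parental, -0.12 on 1419896_at and -0.30 on 1429448_s_at. The probe set 1419897_at, under the filter on every array, read 2.3 on the parental array and 15.7 and 23.7 in bone, the opposite order. Across all genes, 18.1% had all 4 sub-line arrays below the parental array, and 17.6% had both bone arrays below the other 3. The nearest profiles to Tet1 included Rarb, a retinoic acid receptor gene, and Igfbp2, an insulin-like growth factor binding protein gene, at 0.0331 and 0.0470.

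Tet2 on probe set 1455300_at read 55.0 on the parental array, 76.0 and 40.3 in bone and 73.8 and 75.9 in liver. Bone passage 6 was the lowest array and bone passage 3 the highest, so the bone values enclosed all others. Bone against liver was -0.34 ± 0.27 (95% interval -0.98 to 0.31) and bone against parental 0.020 ± 0.33, with adjusted limma p-values of 0.604 and 0.993. The medians of the genes of chromosome 3, which carries Tet2, were -0.27 and -0.22 in these comparisons. Tet3 read 11.4 on the parental array, 7.3 and 15.0 in bone and 9.9 and 21.4 in liver, below the filter, and was not tested.

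**Figure D5:**
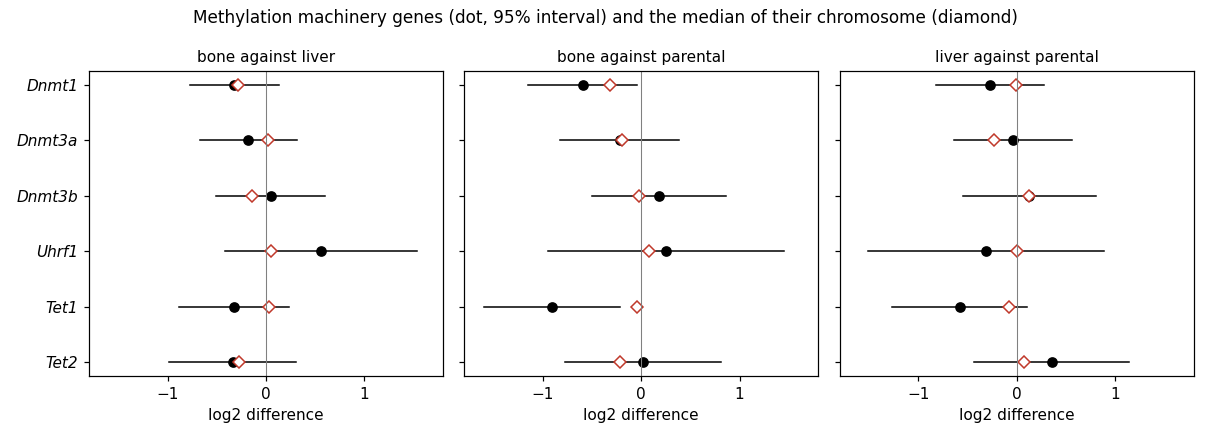
Log2 differences of the 6 machinery genes that passed the filter in the 3 comparisons, with bars for 95% intervals from limma. Diamonds mark the median of the genes tested on the chromosome of each gene. Every machinery difference lies within 0.91 of 0. The untested Rhox5 differences in the comparisons of bone were -4.57 and -4.74.

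Proteins that read or accompany DNA methylation were taken from lists of known function. Of 8 annotated methyl-CpG binding genes, all of which passed the filter, 0 were called in any comparison. In bone against liver, bone against parental and liver against parental, 2, 0 and 0 of the 8 had an unadjusted limma p under 0.05, where 14.1%, 8.17% and 7.49% of all genes did. The medians of the list in those comparisons were 0.040, 0.11 and 0.10, where all genes had -0.023, -0.019 and 0.014. Zbtb33, the X-linked gene of the methyl-CpG binding repressor Kaiso, read 358.7 on the parental array, 257.1 and 257.7 in bone and 542.7 and 472.0 in liver, in the order of the X-linked median. Its bone against liver difference was -0.93 ± 0.18 (adjusted p = 0.130 in limma). Uhrf2, a relative of Uhrf1, read 253.9 on the parental array, 342.5 and 405.6 in bone and 261.3 and 260.4 in liver. Both bone arrays were above the other 3, as for 13.7% of all genes, and bone against liver was 0.49 ± 0.19 (adjusted p = 0.326 in limma). A dimmer Uhrf2 probe set was highest on the parental array, at 29.8.

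Among 8 genes of demethylation and base repair that passed the filter, 15 repressive chromatin partners and 8 genes of methyl donor supply, limma called 0 in each comparison. At an unadjusted p under 0.05 the only gene of these was Hdac1, which encodes a histone deacetylase, in bone against liver, where 14.1% of all genes passed. Hdac1 read 1005.9 on the parental array, 1018.8 and 1045.0 in bone and 663.8 and 764.8 in liver, with a bone against liver difference of 0.52 ± 0.18 (adjusted p = 0.292 in limma). The bone arrays were close to the parental array, and both liver arrays were lower. Hells, whose product is a chromatin remodeller needed for normal DNA methylation and which is no gene of the naming rule, read higher at the later passages as Uhrf1 did, at 843.8 and 1271.6 in bone and 703.8 and 1009.5 in liver, and was chosen after its values were seen. Idh1, whose product makes the 2-oxoglutarate used by TET enzymes, read 323.7 on the parental array, 478.3 and 566.1 in bone and 136.9 and 517.3 in liver, where liver passage 1 alone was low.

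Other genes known to be kept silent by promoter methylation were looked at beside Rhox5. Of 18 annotated germline genes of that kind, 16 were under the filter on every array, and the median of their highest values over the 5 arrays was 9.4. The exceptions were Asz1, a germ-cell gene, with values from 25.7 to 36.8, and Sycp1, a component of the meiotic synaptonemal complex. Sycp1 read 26.9 on the parental array, 8.3 and 9.0 in bone and 14.3 and 4.3 in liver, overlapping between bone and liver. It was highest on the parental array, where alone it reached the filter. Of 10 imprinted genes that passed the filter, 0 were called, and the medians were -0.11, -0.34 and -0.32. At an unadjusted limma p under 0.05 there were 2, 1 and 0 of the 10, where 14.1%, 8.17% and 7.49% of all genes passed. Plagl1, an imprinted zinc finger gene, read 47.7 on the parental array, 12.7 and 15.3 in bone and 29.1 and 40.9 in liver. Both bone arrays were below the other 3, as for 17.6% of all genes, and Plagl1 reached the filter only on those 3. Bone against parental was -1.09 ± 0.25 (adjusted p = 0.281 in limma). A second Plagl1 probe set did not share this order, at 12.3 on the parental array, 30.3 and 4.3 in bone and 21.8 and 21.3 in liver.

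Factors reported to act at Rhox5 promoters, and reported Rhox5 targets, formed a list of 12, of which 9 passed the filter. None was called, and the medians were -0.31, -0.25 and -0.085. At an unadjusted limma p under 0.05 there were 2, 2 and 0 of the 9, where 14.1%, 8.17% and 7.49% of all genes passed. Gata4, of the GATA factors, read 24.9 on the parental array, 8.6 and 10.5 in bone and 46.3 and 32.1 in liver. Bone was below parental below liver (bone against liver -1.10 ± 0.21, adjusted p = 0.127 in limma). Gata4 passed the filter on the liver arrays alone, so its selection favoured this order. A second Gata4 probe set stayed between 2.9 and 9.4. Across all genes, 17.6% had both bone arrays below the other 3. Ets1, a founding ETS factor, read 1029.0 on the parental array, 594.6 and 756.7 in bone and 891.4 and 977.4 in liver, again with bone lowest (bone against parental -0.61 ± 0.25, adjusted p = 0.608 in limma), although a dimmer Ets1 probe set stayed between 133.5 and 149.2 with no such order. Elk1, an X-linked ETS factor gene, read 46.3 on the parental array, 39.7 and 32.1 in bone and 68.7 and 83.3 in liver. Another Elk1 probe set above the filter read 45.3, then 49.2 and 38.4, and 53.9 and 62.6, with bone passage 3 above the parental array. Ets2, another ETS factor, had its lowest value, 600.0, on the parental array. Of the reported targets, Unc5c alone passed the filter, and Ins2 was under it on every array. Unc5c read 73.8 on the parental array, 49.3 and 45.0 in bone and 64.7 and 67.9 in liver (bone against parental -0.51 ± 0.22, adjusted p = 0.619 in limma). A second Unc5c probe set was under the filter on every array.

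Markers of other cells that express Rhox5 or could be mixed into the samples were summed over every annotated gene of each list, those under the filter included. The Sertoli cell list of 8 genes, 5 of them above the filter, summed to 3580.2 on the parental array, 3671.5 and 3989.2 in bone and 2786.4 and 3885.4 in liver, most of it from Clu, which is broadly expressed. Without Clu the sums were 426.1, then 570.3 and 498.3, and 503.7 and 531.6. Its genes Amh and Wt1 stayed at or below 8.6 and 9.3. Dhh, a hedgehog ligand gene, read 2.0 on the parental array, 49.0 and 58.7 in bone and 10.4 and 13.2 in liver. Dhh was highest on the bone arrays, where Rhox5 was low, but it reached the filter on those arrays alone. A second Dhh probe set stayed between 1.7 and 3.5. Germ cell markers, of which Prm2 alone of 7 passed the filter, summed to between 53.4 and 99.0, and trophoblast markers, 2 of 4, to between 70.8 and 106.4. Hepatocyte markers, 1 of 5, summed to between 24.6 and 63.6, and osteoblast markers, 1 of 4, to between 57.2 and 83.6.

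Macrophage markers, 7 of 8 above the filter, summed to 526.1 on the parental array, 734.5 and 1187.9 in bone and 814.0 and 734.6 in liver. The monocyte co-receptor gene Cd14 carried much of this sum, at 336.0, then 450.2 and 928.2, and 212.2 and 242.0. Without Cd14 the sums were 190.1 on the parental array, 284.3 and 259.7 in bone and 601.8 and 492.6 in liver, higher on the liver arrays than on the other 3. Of the 7 genes above the filter, Cd14 included, 5 were lower in bone than in liver by point estimate, with a median of -0.86. Liver against parental had a median of 1.15, the value of Fcgr3. Fcgr3 and Ptprc reached the filter at liver passage 1 alone, with 30.4 and 25.7, so their selection favoured a high liver value. Limma called 0 of the 7. In bone against liver, bone against parental and liver against parental, 5, 0 and 3 had an unadjusted limma p under 0.05, where 14.1%, 8.17% and 7.49% of all genes did. Cd14, higher in bone, and Fcgr3 are among the 5. Fibroblast markers, 3 of 8, summed to 257.9 on the parental array, 165.3 and 146.1 in bone and 253.2 and 236.4 in liver. Bone was lowest in this sum, as for Rhox5. Pdgfra carried much of it, at 132.2, then 71.6 and 48.8, and 138.3 and 124.5. Of the 3 above the filter, Col1a2 did not share the order, at 46.7, then 52.2 and 38.1, and 34.4 and 39.3. The part of these cells in the Rhox5 difference was not tested.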

How the data were processed

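Total RNA of 5 cell samples was hybridised to 1-colour Affymetrix mouse arrays. RMA is named per the submitters' processing notes, and no version or settings of it were found in the labels. RMA output is usually on a log2 scale, so the method behind these values is not settled. The deposited values are a linear intensity per probe set, with no log taken, and their trimmed means are equal across arrays. They were used as log2(intensity + 16), where 16 is a chosen pseudocount, so log2 values here were computed from the deposited intensities. Probe sets were named through the platform annotation, in which 34945 of 45101 have 1 gene. A gene took its probe set with the highest mean log2 value, and 12609 genes whose highest value reached 25.1 entered one fit over all 5 arrays (limma 3.58.1, R 4.3.3, 3 group means, residual df 2, Benjamini-Hochberg over all genes, called at an adjusted p under 0.05). The code was tested on simulated data with known changes in bone. It called 10.6% of 2-fold changes in bone against liver and 2.2% in bone against parental. Most changes of that size would thus go uncalled, so 0 calls do not show that the machinery genes were unchanged. The number of arrays limits the precision.

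The members and gene lists were chosen with earlier results of these data known. Named without regard to value were the 9 genes and all their probe sets. From each list, any called gene and the 2 with the largest absolute difference in bone against liver and in bone against parental could be named, and the 6 nearest profiles of Rhox5 and the 3 nearest of each machinery gene with a log2 range of 1 or more. Hells, Ets2, Unc5c and the X-linked and flanking genes were chosen after their values were seen. RefSeq positions (GRCm38.p6) were matched by symbol for 12592 of the 12609 genes. Alternatives were another filter, pseudocount, scaling, probe set rule or prior, and leaving out each sub-line array.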

Additional observations from a re-analysis of the deposited data

Results flagged for a closer look

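On the probe set that stands for each gene, the passage differences of Tet1 and Tet2 were opposite in sign in the 2 sub-lines. The final minus early passage difference of Tet1 was -0.53 on the log2 scale in bone and 0.11 in liver. That of Tet2 was -0.71 in bone and 0.033 in liver. Another Tet1 probe set that passed the filter gave -0.31 in bone and -0.034 in liver, the same sign. The liver differences of both genes are small beside those in bone. Each value compares 1 array with 1 array, and the difference between the sub-lines was not tested.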

How the results depend on the processing

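Limma called none of the 6 machinery genes in the 3 comparisons under any alternative run. The number at least 2-fold apart between bone passages rose from 0 to 1 with each array centred on its median and to 2 at a threshold of 1.5-fold, and between liver passages it was 1 at 1.5-fold. With early or final passage as a replicate block, Rhox5 stood at -4.57 in bone against liver, and the block changed no call among the machinery genes. Leaving out 1 sub-line array at a time, Rhox5 ranged from -5.15 to -3.99 in bone against liver, from -5.16 to -4.32 in bone against parental and from -0.75 to 0.41 in liver against parental.

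Of 270 alternatives for single machinery genes, 252 kept the sign and 18 reversed it, and the cause was not tested. Dnmt3a on other probe sets was 0.13 in bone against liver, 0.26 and 0.21 in bone against parental, and 0.12 and 0.21 in liver against parental, where the mean of probe sets gave 0.021. Leaving out either liver array gave -0.13 to 0.050 there. Dnmt3b in liver against parental was -0.17 as a mean of probe sets and -0.47 on its other probe set. Tet1 on other probe sets was 0.22 in bone against liver and 0.16 in liver against parental. Without 1 sub-line array each, Dnmt3b spanned -0.18 to 0.29 in bone against liver (below 0 without the array of bone passage 3 or of liver passage 3) and -0.11 to 0.37 in liver against parental (below 0 without liver passage 1). Uhrf1 spanned -0.18 to 0.68 in bone against parental (below 0 without bone passage 6) and -0.79 to 0.17 in liver against parental (above 0 without liver passage 1). Tet2 spanned -0.69 to 0.018 in bone against liver (above 0 without bone passage 6) and -0.33 to 0.37 in bone against parental (below 0 without bone passage 3).

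Alternatives for the X-linked medians were chosen after seeing the data. With no filter the medians were -0.22 (bone against liver), -0.14 (bone against parental) and 0.094 (liver against parental). Bone against liver was -0.57 with a pseudocount of 1, and bone against parental was -0.13 with median centring. Leaving out 1 array at a time gave -0.55 to -0.45, -0.21 to -0.20 and 0.23 to 0.34.

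Over all genes, the calls depended on single arrays: bone against liver had 24 calls, 0 when either liver array was left out and 75 or 53 without the bone array of passage 3 or 6. Bone against parental had 17 calls, 8 when either liver array was left out and 52 or 47 without that of passage 3 or 6. Liver against parental had 2 calls, 0 when either liver array was left out and 38 when either bone array was left out. Centring on the median gave 130, 99 and 30 calls, and no filter gave 0, 1 and 1. With the replicate block, bone against liver had 161 calls. Dim probe sets such as Dnmt3l and Tet3 have no measured difference here.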
